A study of Mus musculus with 12 samples.

Results

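The values of 9 interferon response genes were taken from hippocampal RNA-Seq profiles of adult mice, out of 35580 genes with an annotated transcript in the deposited values. The genes Ddx58, Ifih1, Dhx58, Irf7, Ifit1, Ifit3, Isg15, Oasl2 and Bst2 were chosen by name, and all 48 of their transcripts among the 115270 transcripts of the series were used, summed per gene and also one by one. The 12 male mice (C57BL/6 by the labels, C57BL/6J by the study's methods) were at postnatal day 70. Control mice came from dams that drank water only and were left undisturbed with the dam. Ethanol mice came from dams offered 10% ethanol beside water in a free choice, during pregnancy by the labels and also until early postnatal life by the study's methods. Stress mice were kept alone, away from dam and litter, during 3 h of each day between postnatal days 2 and 14, and ethanol + stress mice had both treatments. Each group held 3 mice with 1 library each. The dose is limited by how much each dam chose to drink, and littermates can sit in more than 1 group, because part of each litter was selected for the stress treatment and the labels name no litter. The spread between libraries can therefore be smaller than that between litters.

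Interferons are secreted proteins that cells release when they sense viral nucleic acids. The RNA sensors RIG-I (Ddx58), MDA5 (Ifih1) and LGP2 (Dhx58) recognise double-stranded RNA in the cytoplasm, and the transcription factor Irf7 then drives the genes of type I interferons. Interferon receptors signal to the nucleus, where the interferon-stimulated response element in promoters is bound, and this raises effectors such as Ifit1, Ifit3, Isg15, Oasl2 and Bst2. In a healthy brain these genes are kept at a low basal level, and microglia, astrocytes, neurons and endothelium can all express them.

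Promoter sequence shows which of these genes carry the core of that response element next to their start. The windows of RefSeq for GRCm38.p6 were searched over the 250 bases before the start site for GAAA followed after any 2 bases by GAAA, on either strand. A window was found for 8 of the 9 genes, and 4 of these 8 held at least 1 match, against 2.98% of 32851 promoter windows of the same length. Ifit1, Ifit3, Isg15 and Bst2 are shown with the matches in capitals, in the direction of the gene, and Irf7 is shown as a gene of the 9 whose window held no match. Printed are up to 200 bases before the RefSeq start site, without bases that GENCODE places in the gene: chr19:34640689-34640870 on the plus strand for Ifit1, chr19:34583329-34583528 on the plus strand for Ifit3, chr4:156200819-156201018 on the minus strand for Isg15, chr8:71537473-71537672 on the minus strand for Bst2 and chr7:141266482-141266624 on the minus strand for Irf7.
Ifit1: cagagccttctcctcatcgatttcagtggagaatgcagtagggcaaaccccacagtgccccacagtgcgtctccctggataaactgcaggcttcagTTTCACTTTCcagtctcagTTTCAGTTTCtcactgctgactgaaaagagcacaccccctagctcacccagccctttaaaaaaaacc
Ifit3: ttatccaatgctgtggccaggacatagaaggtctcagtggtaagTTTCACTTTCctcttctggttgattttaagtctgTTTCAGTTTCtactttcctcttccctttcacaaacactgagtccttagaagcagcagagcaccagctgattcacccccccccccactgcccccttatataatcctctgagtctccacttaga
Isg15: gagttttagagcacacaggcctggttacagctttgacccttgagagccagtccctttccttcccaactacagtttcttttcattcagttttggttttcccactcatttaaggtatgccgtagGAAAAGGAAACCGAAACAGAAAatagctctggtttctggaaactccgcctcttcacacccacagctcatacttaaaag
Bst2: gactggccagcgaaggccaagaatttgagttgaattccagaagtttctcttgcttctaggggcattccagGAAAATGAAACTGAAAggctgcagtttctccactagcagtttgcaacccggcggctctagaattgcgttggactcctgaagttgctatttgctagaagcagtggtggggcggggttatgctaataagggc
Irf7: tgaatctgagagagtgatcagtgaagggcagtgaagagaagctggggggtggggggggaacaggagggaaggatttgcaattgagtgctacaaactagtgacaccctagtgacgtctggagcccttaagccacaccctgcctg
The matches in Ifit1 and Ifit3 lie on the opposite strand, where they read TTTC, any 2 bases and TTTC, and begin 104 and 85 bases before the start site in Ifit1 and 156 and 122 bases before it in Ifit3. In Isg15, 3 overlapping matches begin 78, 72 and 66 bases before the start site. In Bst2, 2 overlapping matches begin 130 and 124 bases before it. The windows of Ddx58, Ifih1, Irf7 and Oasl2 hold no match, which says only that these letters are not in this stretch.

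The deposited value is TPM, an abundance per transcript length, that the authors had also scaled between libraries, so that the sums run from 889222 to 1173650 per library. A step worth 1 read pair was recovered from low values, with 80.6% to 84.0% of them whole within 0.1 read pairs, and gives 11630000 to 14420000 read pairs per library. Every library held hippocampal markers, with the summed TPM of 6 neuronal markers (Snap25, Syt1, Rbfox3, Neurod6, Prox1 and Wfs1) between 1873 and 2538. Markers of neighbouring tissue and of blood varied between libraries. The summed TPM of 4 choroid plexus markers (Ttr, Folr1, Kl and Kcne2) ran from 37.0 to 7214. In ethanol and in ethanol + stress mice 5 of 5 blood markers were called higher, at an unadjusted p under 0.01 in limma. This rule calls 0.678% and 0.971% of all genes there, and none of the 5 passed adjustment. In stress mice 5 of 5 were above 0 and 0 were called. Group medians of their sum were 1740 in control, 3472 in ethanol, 2813 in stress mice and 3977 in ethanol + stress mice. Ethanol library 2 and ethanol + stress libraries 2 and 3, which have the highest sums of deposited values, stood apart from the other 9 libraries. All 3 lay above the other 9 for 10.3% of the 18434 genes tested and below them for 9.48%. Of the 6 neuronal markers, Syt1, Rbfox3, Neurod6 and Wfs1 were below the other libraries in all 3, with Syt1 at 280, 250 and 284 TPM against 399 to 539. The astrocyte markers Gfap and Aldh1l1 (2 of 4) and 3 of 5 blood markers were above them, with Gfap at 346, 352 and 337 TPM against 194 to 293. Results are therefore also given without these 3 libraries, where the ethanol + stress group is left with 1 library that is assumed to vary like the others.

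All 9 genes were detected in every library and all passed the filter on low values, so none was left out of the test. Ifit3 was the highest of them at a mean of 9.72 TPM over the 12 libraries. Bst2 followed at 8.56, Ddx58 at 5.02, Ifih1 at 2.65, Isg15 at 2.29, Irf7 at 1.99, Oasl2 at 1.95, Ifit1 at 1.93 and Dhx58 at 1.06 TPM. These levels lie between the 22.6 and 48.9 percentiles of the 18434 genes tested. Few read pairs stand behind them. Isg15 rests on 5.95 to 16.9 estimated read pairs per library, Dhx58 on 6.97 to 18.9, Irf7 on 14.0 to 36.8 and Oasl2 on 20.9 to 44.8, whereas Ddx58, Ifih1 and Ifit3 reach 107 to 175 read pairs in their highest library. For 18.9 read pairs of Dhx58 in the first control library, the 95% Poisson interval is 11.3 to 29.5 read pairs, which covers counting error only. The interferon genes Ifnb1, Ifna2 and Ifna4 themselves were listed at 0 in all 12 libraries, and Ifng was listed above 0 in ethanol library 1 (0.223 TPM) and ethanol + stress library 3 (0.125 TPM), while the receptor subunits Ifnar1 and Ifnar2 had means of 22.5 and 19.0 TPM.

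**Figure D1:**
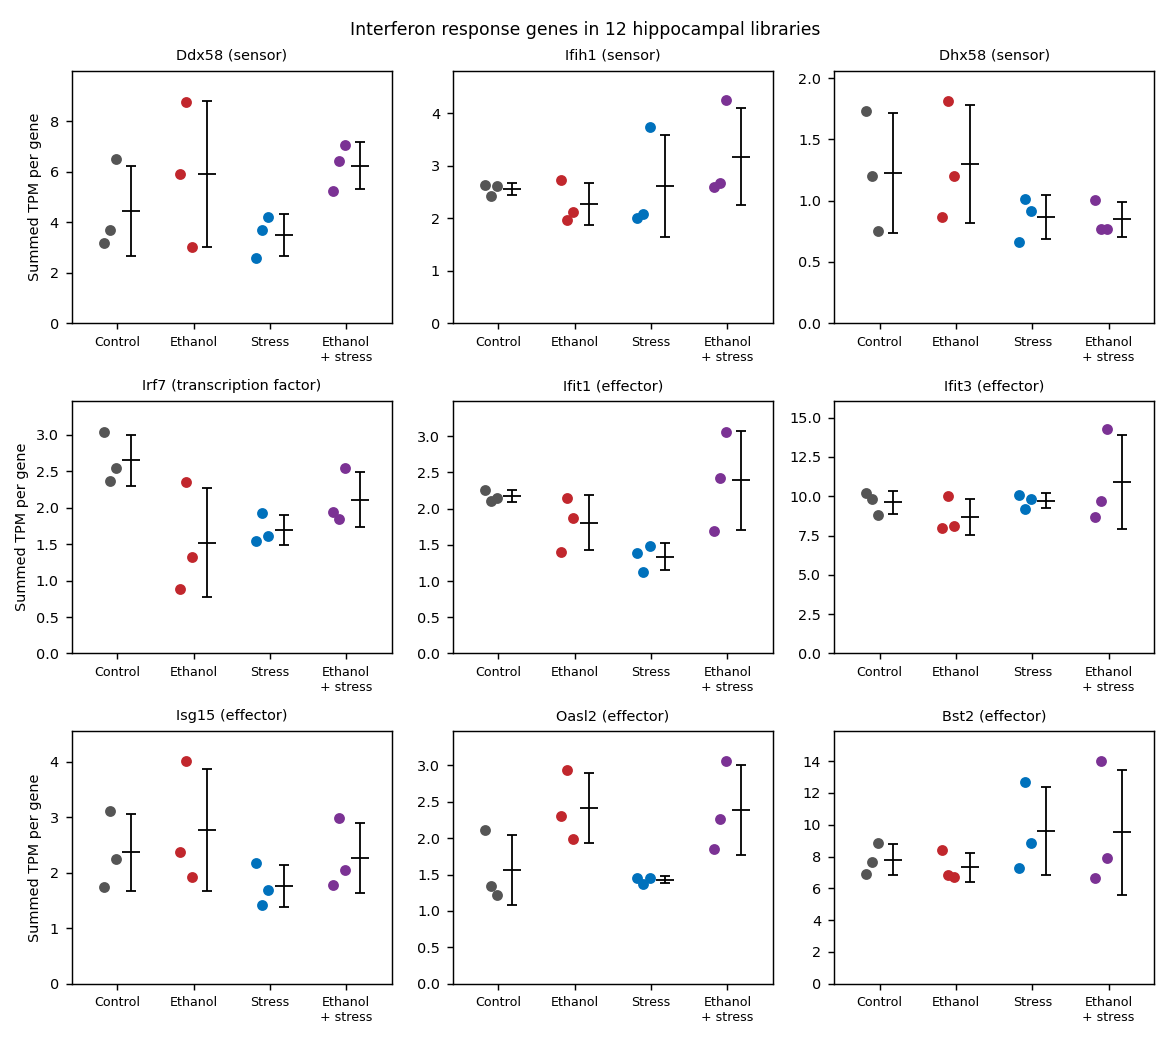
Summed TPM per gene (y axis, from 0) for each of the 9 genes in the 12 libraries, by group (x axis). Points are single mice, the black bar is the group mean and its whiskers the SD of 3 mice. All stress points lie under all control points for Ifit1 and Irf7, and all ethanol points lie under all control points for Irf7.

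None of the 9 genes was called in any of the 4 comparisons at an unadjusted p under 0.01 in limma. Each treatment was compared with control, and the interaction, the difference between the effect of ethanol in stressed mice and its effect in undisturbed mice, was tested in the same model on log2(TPM + 0.5). Over all 18434 genes this rule calls 0.678% in ethanol mice, 0.51% in stress mice, 0.971% in ethanol + stress mice and 0.461% for the interaction, so that 0 of 9 is close to that background. At an unadjusted p under 0.05, limma gave 2 of the 9 genes in ethanol mice (Irf7 and Oasl2), 1 in stress mice (Ifit1), 1 in ethanol + stress mice (Oasl2) and 2 for the interaction (Irf7 and Ifit1), where 3.63%, 2.40%, 5.37% and 2.69% of all genes reach it. After Benjamini-Hochberg adjustment over all genes, the smallest adjusted p of limma among the 9 genes was 0.997 in ethanol, 0.9998 in stress, 0.791 in ethanol + stress mice and 0.99998 for the interaction. The 3 treatments share the same control libraries. In bulk tissue, fewer cells of a type and less RNA per cell cannot be told apart.

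In ethanol mice the difference from control was above 0 for 4 genes and below 0 for 5, with a median of -0.09 on the log2 scale beside 0.02 over all genes. In stress mice 2 lay above and 7 below 0, with a median of -0.27 beside 0.00 over all genes. In ethanol + stress mice 6 lay above and 3 below 0, with a median of 0.14 beside 0.02. For the interaction 8 lay above and 1 below 0, with a median of 0.27 beside -0.01. Without the 3 libraries that stood apart, the ethanol + stress group is 1 library. In that fit 1 gene lay above and 8 below 0 in ethanol mice. For the 1 ethanol + stress library 3 lay above and 6 below (median -0.16 on the log2 scale), and for the interaction 7 above and 2 below (median 0.12). The balance above 0 in ethanol + stress mice is therefore not seen in that library alone. These counts are a description, not a test. Ordered by group means, the ethanol + stress group was highest for 4 genes, the ethanol group for 3, and control and stress for 1 each. In 27 of 27 pairs of neighbours in these orders the libraries of both groups overlapped. Neighbours have the closest means, and the share of such overlap over all genes was not computed. Groups farther apart could separate, with all stress libraries below control for Ifit1 and Irf7, a pattern that 3.39% of all genes show.

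**Figure D2:**
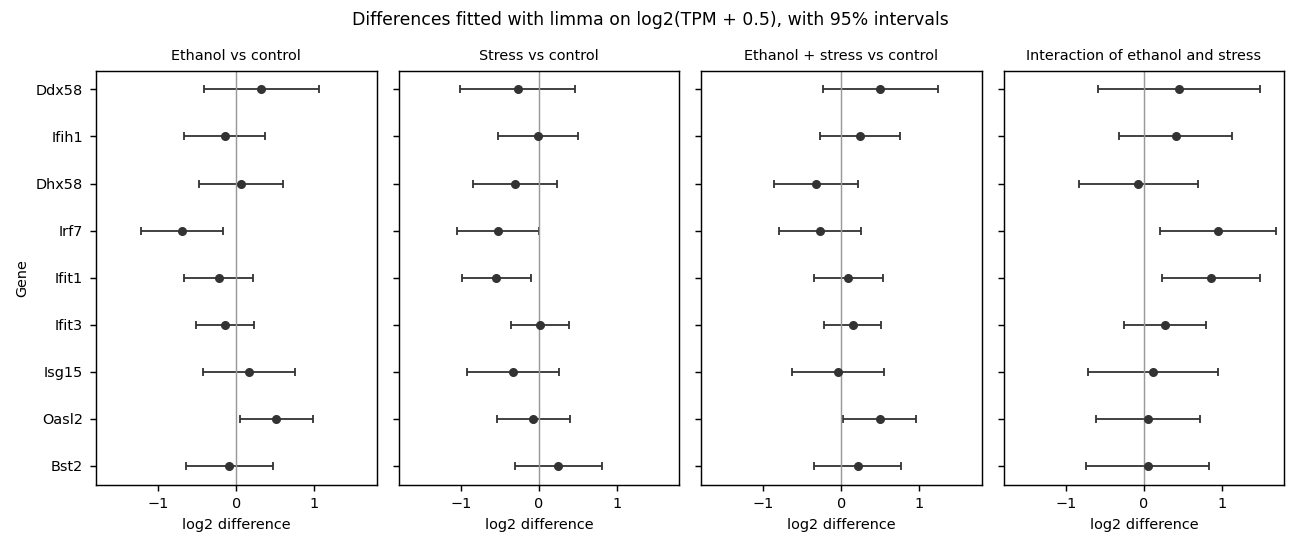
Fitted differences on the log2(TPM + 0.5) scale (x axis) for the 9 genes (y axis), in 4 panels for the treatments against control and the interaction. Points are limma estimates and bars their 95% intervals from 3 mice per group. The intervals of Irf7 and Ifit1 lie above 0 for the interaction, at 0.20 to 1.69 and 0.23 to 1.48.

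Among the RNA sensors, Ddx58 (RIG-I) had the widest spread between mice. Its summed TPM was 3.16, 3.68 and 6.48 in control mice, 5.91, 8.77 and 3.01 in ethanol mice, 2.58, 3.67 and 4.21 in stress mice and 5.25, 6.42 and 7.05 in ethanol + stress mice. The ethanol group held both the highest value of all and one below every control value. The fitted difference from control was 0.32 ± 0.34 (SE) in ethanol, -0.27 ± 0.34 in stress mice and 0.50 ± 0.34 in ethanol + stress mice on the log2 scale, with an adjusted p = 0.791 for the last of these in limma. Much of the summed value lies in short transcripts. Protein-coding transcripts hold 40.0% of the summed value, and a further 20.8% and 19.2% are in 2 processed transcripts of 435 and 386 bases (ENSMUST00000140616.1 and ENSMUST00000136435.1), each of which rests on 0 to at most 6.17 read pairs per library. The TPM of the protein-coding transcripts alone was 1.86 ± 0.09 in control, 1.86 ± 0.45 in ethanol, 2.16 ± 0.19 in stress mice and 2.14 ± 0.43 in ethanol + stress mice (SD, n = 3). Counted as RPM, the estimated read pairs of a gene per 1000000 read pairs of the library without a correction for length, Ddx58 was at 6.08 ± 0.75 in control, 6.62 ± 1.15 in ethanol, 6.43 ± 0.66 in stress mice and 6.73 ± 0.21 in ethanol + stress mice (SD, n = 3). The ethanol difference in protein-coding TPM was -0.01 on the log2 scale. In protein-coding TPM the 3 stress libraries lay above the 3 control libraries, with a difference of 0.17 ± 0.17 (SE), a pattern that 3.79% of all genes show by that measure, and in RPM all groups overlapped.

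Ifih1 (MDA5), which senses long double-stranded RNA, was steady in control mice at 2.63, 2.42 and 2.61 TPM. It was 2.72, 1.97 and 2.12 TPM in ethanol, 2.01, 2.09 and 3.74 in stress mice and 2.60, 2.67 and 4.24 in ethanol + stress mice. The groups overlapped, and the 2 highest values were single mice, 1 of the stress and 1 of the ethanol + stress group. The largest of its 3 fitted differences from control was 0.24 ± 0.24 (SE) on the log2 scale in ethanol + stress mice (adjusted p = 0.807 in limma).

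Dhx58 (LGP2), which regulates the other two sensors, was the lowest of the 9 genes. Its TPM was 1.73, 1.20 and 0.756 in control, 0.871, 1.82 and 1.21 in ethanol, 0.664, 1.01 and 0.918 in stress mice and 1.01, 0.767 and 0.767 in ethanol + stress mice. All groups overlapped. The differences of -0.31 in stress mice and -0.33 in ethanol + stress mice, on the log2 scale, each had an SE of 0.25. In RPM the group means were 0.992, 1.07, 0.976 and 1.07 in control, ethanol, stress and ethanol + stress mice, so that the lower sums in the stressed groups are not seen in the number of read pairs.

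Irf7, the transcription factor that drives the type I interferon genes, had the largest difference from control among the 9 genes when all its transcripts were summed. The summed TPM was 3.04, 2.37 and 2.55 in control, 0.887, 2.35 and 1.32 in ethanol, 1.54, 1.93 and 1.61 in stress mice and 1.94, 1.85 and 2.55 in ethanol + stress mice. Every ethanol and every stress library lay below every control library, although the second ethanol library missed the lowest control value by little, whereas the ethanol + stress libraries overlapped with control. Irf7 was the only one of the 9 genes with all ethanol libraries below control, a pattern that 3.19% of all genes show, and 1 of 2 in stress mice, where 3.39% of all genes show it. In ethanol + stress mice no gene of the 9 had all libraries below control (4.62% of all genes), and none had all libraries above control in ethanol, stress or ethanol + stress mice, where 5.06%, 3.81% and 5.63% of all genes do. On the log2 scale the difference was -0.70 ± 0.24 (SE) in ethanol mice (95% interval -1.23 to -0.17, adjusted p = 0.997 in limma), -0.52 ± 0.24 in stress mice (95% interval -1.05 to 0.01, adjusted p = 0.9998 in limma) and -0.27 ± 0.24 in ethanol + stress mice (adjusted p = 0.794 in limma). The interaction was 0.95 ± 0.34, with a 95% interval of 0.20 to 1.69 (adjusted p = 0.99998 in limma). The ethanol difference was -0.46 and the interaction 0.71 without ethanol library 1, neither called. Without ethanol library 2, the ethanol difference (-0.98) and the interaction (1.23) of Irf7 are called at an unadjusted p under 0.01, as they are without all 3 libraries that stood apart (-0.98 and 1.14), and with all libraries rescaled to a common total the ethanol difference (-0.77) is.

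These differences of Irf7 depend on how its 13 annotated transcripts are summed. The transcript with the highest mean, ENSMUST00000026571.10, is protein-coding and holds 40.3% of the summed value, and its TPM of 0.366, 0.00564 and 1.05 in control mice, against 1.13, 1.46 and 0.349 in stress mice, differed widely between mice of 1 group. With protein-coding transcripts only, Irf7 was at 1.24 ± 0.28 TPM in control, 1.22 ± 0.31 in ethanol, 1.40 ± 0.45 in stress mice and 1.51 ± 0.92 in ethanol + stress mice (SD, n = 3). The corresponding differences from control on the log2 scale were -0.02, 0.11 and 0.11, and the interaction was 0.02 ± 0.44 (SE). In RPM Irf7 was at 2.25, 2.23 and 2.08 in control, 1.02, 2.29 and 1.52 in ethanol, 1.58, 2.19 and 1.66 in stress mice and 1.73, 2.12 and 2.96 in ethanol + stress mice. By that measure each treatment overlapped with control, the ethanol difference was -0.39 ± 0.23 (SE) on the log2 scale and the interaction 0.64 ± 0.32.

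**Figure D3:**
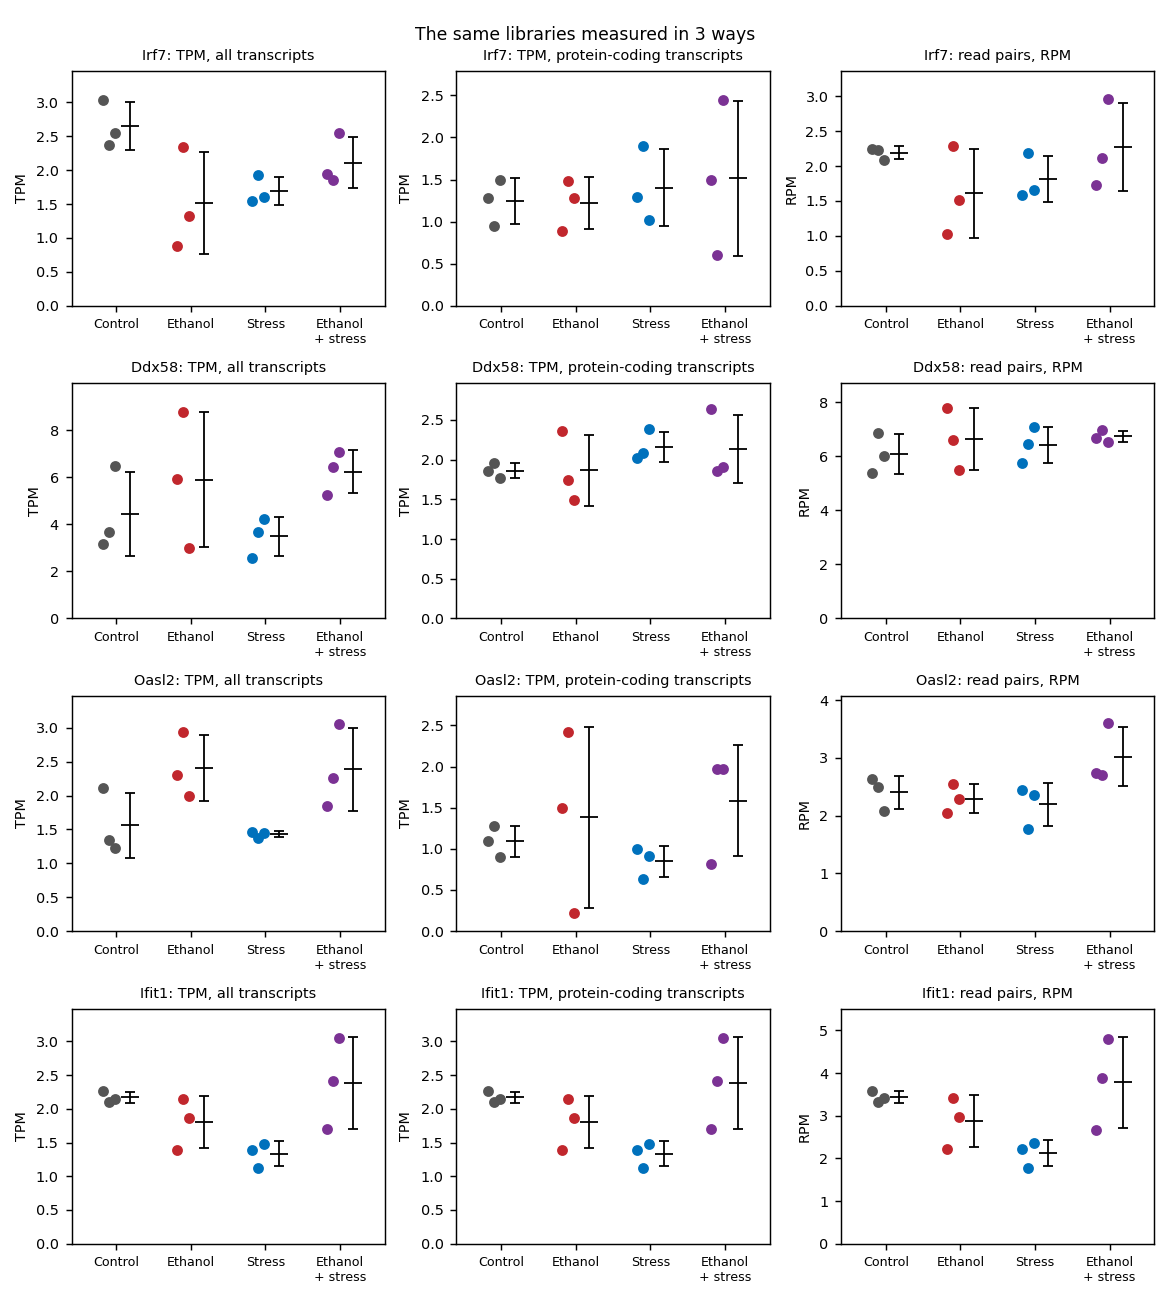
Irf7, Ddx58, Oasl2 and Ifit1 (rows) in the 12 libraries by group (x axis), as summed TPM of all transcripts, TPM of protein-coding transcripts and estimated RPM (columns, y axes from 0). Points are single mice and black bars the mean and SD of 3 mice. The separation of Irf7 in ethanol and stress mice is seen in the first column only, whereas all 3 stress points of Ifit1 lie below control in each column.

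Ifit1, an effector that binds viral RNA lacking the host's cap methylation, has 1 annotated transcript, so its value does not depend on how isoforms are summed. Its TPM was 2.26, 2.10 and 2.15 in control, 1.40, 2.15 and 1.87 in ethanol, 1.39, 1.13 and 1.49 in stress mice and 1.69, 2.42 and 3.06 in ethanol + stress mice. All 3 stress libraries lay below all 3 control libraries, and ethanol and ethanol + stress overlapped with control. The stress group was at 1.34 ± 0.19 TPM and control at 2.17 ± 0.08 TPM (SD, n = 3), a difference of -0.55 ± 0.20 (SE) on the log2 scale (95% interval -0.99 to -0.10, adjusted p = 0.9998 in limma). The difference was -0.23 ± 0.20 in ethanol and 0.09 ± 0.20 in ethanol + stress mice. The interaction was 0.86 ± 0.29 (95% interval 0.23 to 1.48, adjusted p = 0.99998 in limma). In estimated read pairs, the stress libraries held 31, 21 and 34 and the control libraries 45.8, 38.7 and 42.6. In RPM Ifit1 was the 1 gene of the 9 with all stress libraries below control, which 2.73% of all genes show. In summed TPM all 3 ethanol + stress libraries of Ifit1 lay above all 3 stress libraries, as they did for Ddx58 and Oasl2, a pattern that 4.87% of all genes show. In RPM the stress difference was -0.59 ± 0.20 (SE) and the interaction 0.92 ± 0.29 on the log2 scale, and the interaction is called there at an unadjusted p under 0.01. It is also called without ethanol library 2 (0.97) or without ethanol + stress library 1 (1.04), and at a common total the stress difference (-0.56) and the interaction (0.83) are called. Without the 3 libraries that stood apart the interaction was 0.60 ± 0.31 (SE) on the log2 scale and is not called. A share of 10.8% of the 31-base words of Ifit1 also occur in other genes, mainly Ifit1bl2 and Ifit1bl1, between which read pairs can be divided.

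Ifit3, a partner of Ifit1 in the same gene cluster on chromosome 19, was nearly level. Its TPM was 10.2, 9.84 and 8.79 in control, 7.97, 10.0 and 8.11 in ethanol, 10.1, 9.17 and 9.83 in stress mice and 8.67, 9.71 and 14.3 in ethanol + stress mice. The groups overlapped, and 1 ethanol + stress library stood above the others. Its differences from control were -0.14, 0.01 and 0.14 on the log2 scale, each with an SE of 0.17, and the 95% interval in stress mice was -0.36 to 0.39. Ifit3 shares 61.8% of its 31-base words with its copy Ifit3b, so its value is uncertain where the estimate divides read pairs between them.

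Isg15, a ubiquitin-like protein that is attached to other proteins, had the fewest read pairs. It was at 1.74, 3.12 and 2.24 TPM in control, 2.37, 4.01 and 1.93 in ethanol, 2.18, 1.42 and 1.68 in stress mice and 1.78, 2.98 and 2.04 in ethanol + stress mice. All groups overlapped. The stress difference of -0.33 ± 0.27 (SE) on the log2 scale had a 95% interval of -0.92 to 0.26.

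Oasl2, a member of the oligoadenylate synthetase family, was at 2.11, 1.35 and 1.22 TPM in control, 2.30, 2.94 and 1.99 in ethanol, 1.46, 1.38 and 1.45 in stress mice and 1.85, 2.26 and 3.06 in ethanol + stress mice. The stress libraries lay close together, and 1 control library reached into the range of the ethanol and ethanol + stress mice. The difference from control was 0.51 ± 0.21 (SE) in ethanol mice (95% interval 0.04 to 0.98, adjusted p = 0.997 in limma) and 0.49 ± 0.21 in ethanol + stress mice (95% interval 0.02 to 0.96, adjusted p = 0.791 in limma) on the log2 scale. Without control library 1 the ethanol difference was 0.69 and is called at an unadjusted p under 0.01. As with Irf7, these sums mix isoforms. Protein-coding transcripts hold 63.0% of the value and a transcript subject to nonsense-mediated decay (ENSMUST00000144064.4) 27.5%. With protein-coding transcripts only, the ethanol difference of Oasl2 was 0.03 ± 0.42 (SE) and the ethanol + stress difference 0.34 ± 0.42 on the log2 scale. In RPM Oasl2 was at 2.40 ± 0.29 in control, 2.29 ± 0.25 in ethanol, 2.19 ± 0.37 in stress mice and 3.02 ± 0.51 in ethanol + stress mice (SD, n = 3). By that measure the ethanol difference was -0.06 ± 0.17 (SE) and the ethanol + stress difference 0.27 ± 0.17 on the log2 scale, with all 3 ethanol + stress libraries (2.71 to 3.61) above the highest control library at 2.64. In RPM 2 of the 9 genes, Oasl2 and Ifih1, had all ethanol + stress libraries above control, a pattern that 5.62% of all genes show. Summed Oasl2 also followed the blood markers between libraries, with r = 0.72 (Spearman rho 0.80) over 12 libraries, and 0.62 without the 2 libraries farthest from the median of the blood sum. The part of blood in the summed value was not tested.

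Bst2 (tetherin), which holds budding viruses at the cell surface, was at 6.93, 7.66 and 8.83 TPM in control, 8.39, 6.86 and 6.69 in ethanol, 7.25, 12.7 and 8.85 in stress mice and 6.68, 14.0 and 7.88 in ethanol + stress mice. The second stress and the second ethanol + stress library stood above all others. These are also the 2 libraries with the highest summed choroid plexus markers, at 5215 and 7214 TPM. Over 12 libraries the log2 values of Bst2 and of that sum had r = 0.64 (Spearman rho 0.58). It was 0.61 without the 2 libraries farthest from the median of the log2 sum. Those are ethanol libraries 2 and 3, with the lowest sums (79.1 and 37.0 TPM). Both high libraries stay in that value, so it does not show how far the relation rests on them. The part of choroid plexus tissue in the value of Bst2 was not tested. The difference from control in ethanol + stress mice was 0.21 ± 0.26 (SE) on the log2 scale, and it was -0.09 without the second ethanol + stress library.

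Of the 48 transcripts of the 9 genes, 43 were above 0 in at least 1 library and 18 passed the filter on low values. The transcript with the highest mean was protein-coding for 9 of 9 genes. At an unadjusted p under 0.01, limma called 2 transcripts, both higher in ethanol mice, where it calls 1.26% of 59852 transcripts in either direction and 0.896% as higher. Neither passed adjustment. The first is a retained-intron transcript of Ifih1 (ENSMUST00000175964.1, 3 exons, 2565 bases, on chromosome 2 from 62633488 to 62646158 of GRCm38). Its TPM was 0.0777, 0 and 0 in controls, and rose to 0.269, 0.240 and 0.303 in ethanol mice, with all ethanol libraries above all control libraries, as 6.73% of all transcripts show. The stress and ethanol + stress libraries lay at 0.0769 to 0.233 TPM. The difference in ethanol mice was 0.55 ± 0.13 (SE) on the log2(TPM + 0.5) scale (95% interval 0.26 to 0.85, adjusted p = 0.601 in limma), a value that depends on the pseudocount. In read pairs this is 1.51, 0 and 0 against 5.67, 4.30 and 6.68, so that the control libraries are at or under a floor of 3 read pairs per library and the ethanol mean is 1.69 times that floor.

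The other called transcript is a processed transcript of Dhx58 (ENSMUST00000140543.1, 2 exons, 786 bases, on chromosome 11 from 100695063 to 100696620). Its TPM was 0.0964, 0.105 and 0 in control and 0.495, 0.668 and 0.557 in ethanol mice. With at most 3.02 read pairs in any library, 11 of 12 libraries are at or under the floor, 3 of them control and 2 ethanol libraries, so no fold is given and the call (adjusted p = 0.629 in limma) cannot be read as a change. In stress mice, in ethanol + stress mice and for the interaction, limma called no transcript of the 9 genes, where it calls 0.914%, 1.21% and 0.854% of all transcripts.

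The likeness of the 9 genes between mice was low and differed between pairs. Over 36 pairs of genes and 12 libraries, the median Pearson r of the log2 values was 0.19, and 26 pairs had an r above 0. Ifit1 and Irf7 were the most alike pair, with r = 0.61 (Spearman rho 0.66). By their r with Irf7, Ifit1 ranked 126, Ifit3 233 and Dhx58 1355 of 18433 genes, and the other 5 genes ranked 4884 to 11018, with r from 0.17 to -0.08. After subtraction of the group means, the median r was 0.23 and 25 of 36 pairs had an r above 0. By that measure Ifit1 and Ifit3 had r = 0.84, Ifit3 and Oasl2 0.82 and Ifit1 and Oasl2 0.65, and Irf7 had r = 0.69 with Dhx58, 0.61 with Ifit3, 0.61 with Oasl2 and 0.60 with Ifit1, but -0.10 with Ifih1 and -0.18 with Bst2. The lowest pair was Ifit3 and Bst2 at -0.26. Before subtraction of the group means, Ifit1 had r = 0.60 with Ifit3 and 0.54 with Oasl2, and Ifit3 had 0.40 with Oasl2. Without the 2 libraries farthest from the median of the first gene named, these fell to 0.30, 0.21 and 0.15. In the same way, Dhx58 and Irf7 went from 0.37 to -0.08. Irf7 went from 0.61 to 0.56 with Ifit1, from 0.56 to 0.47 with Ifit3 and from 0.0305 to 0.195 with Oasl2. The genes also followed the scale of the library. The mean of the 9 centred log2 values followed the log2 of the library's summed TPM with r = 0.77 (rho 0.59) over 12 libraries, and 0.50 without the 2 libraries farthest from the median sum. With all libraries rescaled to a common total, that r was 0.27 and the median r of the 36 pairs 0.04. Without the 3 libraries that stood apart the median r of the pairs was 0.0098. Ethanol library 2 and ethanol + stress libraries 2 and 3 had both the 3 highest sums and the 3 highest means of the 9 genes, at 0.29, 0.19 and 0.31 on the log2 scale. Among 14389 genes at a mean of at least 1 TPM, the 10 with a pattern most like that mean were Bbox1, 4930503L19Rik, mt-Nd4l, Coil, Glul, Susd3, 9930021J03Rik, Acot8, Spred2 and mt-Co1, at r = 0.89 to 0.95 over the 12 libraries, and none of these is on the lists of interferon-stimulated genes used here. The 38 other interferon-stimulated genes among these candidates had a median r of 0.42 with that mean, beside 0.05 over all candidates, and ran from -0.75 for Adar to 0.80 for Parp12. An r above 0.5 was reached by 13 of these 38 genes and by 22.7% of all candidates. At a common total the medians were 0.14 and -0.16. The mitochondrial mt-Co1 itself had r = 0.92 with the library sum. Summed microglia markers had r = 0.79 with Ifit3 (rho 0.53), and -0.08 to 0.58 with the other 8 genes. Without the 2 libraries farthest from the median, r was 0.46 with Ifit3, 0.74 with Isg15 and 0.665 with Oasl2. With the rest it was -0.06 to 0.50. The part of library scale, neurons, astrocytes, microglia or blood in these patterns was not tested.

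**Figure D4:**
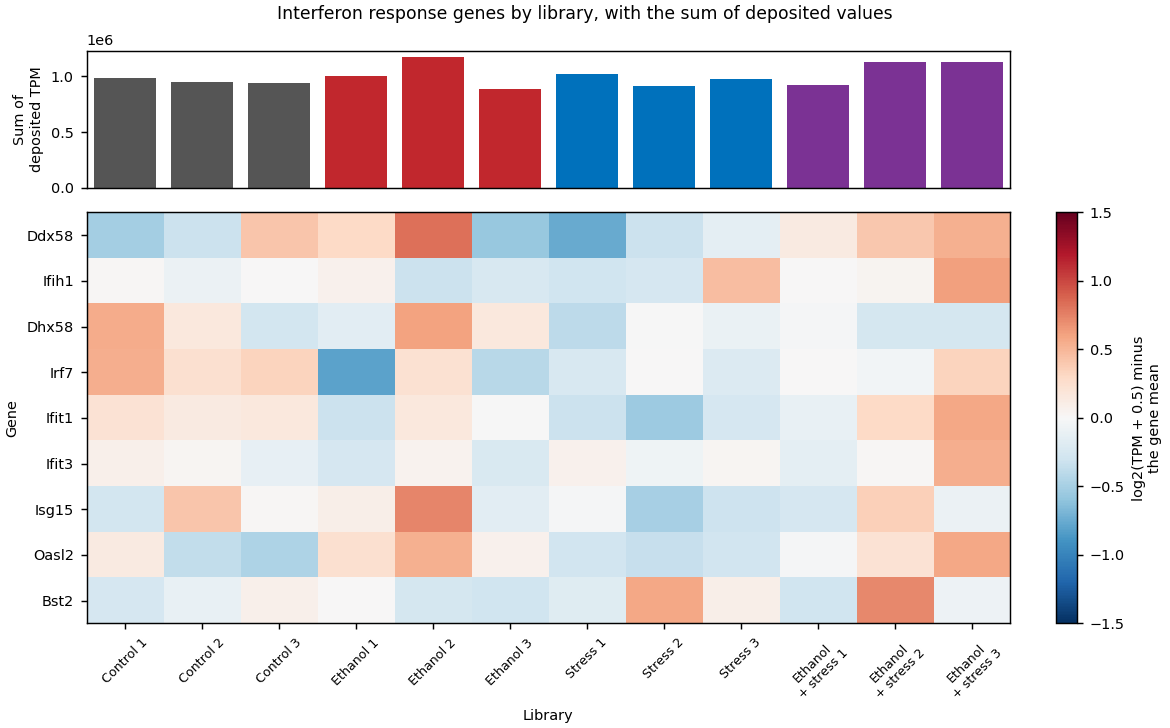
Upper panel: the sum of deposited values of each library (y axis, TPM, bars from 0, coloured by group). Lower panel: log2(TPM + 0.5) of each of the 9 genes (rows) in each library (columns), minus the mean of the gene, from blue (below) to red (above). Ethanol library 2 and ethanol + stress libraries 2 and 3 have the highest sums, and 20 of their 27 cells lie above the gene mean.

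No gene on the other lists of the pathway was called. Of the interferons and their receptors, 5 of 10 genes were tested and 0 were called in any comparison. Of 22 signalling genes, from the kinases Jak1, Jak2 and Tyk2 to the brakes Socs1 and Usp18, 22 were tested and 0 called. Of 50 other interferon-stimulated genes, 49 were tested and 0 called, beside the 0.461% to 0.971% of all genes called in the 4 comparisons. Unadjusted p values under 0.05 in limma fell to Ifitm1, a membrane protein that blocks viral entry, with 0.49 ± 0.19 (SE) on the log2 scale in ethanol and 0.55 ± 0.19 in ethanol + stress mice (adjusted p = 0.997 and adjusted p = 0.791). The GTPase gene Igtp had -0.34 in ethanol mice, and the peptide transporter Tap1 and the kinase Tbk1 had -0.43 and -0.27 in stress mice. The transcription factor gene Irf2 had 0.51 in ethanol + stress mice. For the interaction, the immunoproteasome subunit gene Psmb8 had 0.71, Tap1 0.70 and Tbk1 0.37. These 9 differences are all those at that threshold in the 3 lists, over 4 comparisons of 76 genes, beside the 2.40% to 5.37% of all genes at that threshold, and none passed adjustment. In ethanol + stress mice the difference was above 0 for 35 of the 49 other interferon-stimulated genes, with a median of 0.17 on the log2 scale beside 0.02 over all genes. For the interaction 34 of 49 were above 0, with a median of 0.15 beside -0.01. Leaving aside the 3 libraries that stood apart keeps 1 ethanol + stress library. In that fit 20 of 48 were above 0 in ethanol + stress mice and 22 of 48 for the interaction. The medians were -0.06 and -0.04, beside 0.00 and -0.02 over all genes. Microglia, which express many of these genes, had 1 of 6 markers called for the interaction, Tmem119, at 0.54 ± 0.17 (SE) on the log2 scale, and 5 of 6 above 0, with summed TPM of 298 to 324 in control, 254 to 363 in ethanol, 286 to 333 in stress mice and 293 to 408 in ethanol + stress mice. Of 6 markers of peripheral leukocytes, 5 were tested. S100a8 and Ccr2 were called higher in ethanol + stress mice, where 0.971% of all genes are called. Neither they nor Tmem119 passed adjustment. The part of these cells in the values of the 9 genes was not tested.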

How the data were processed

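Total RNA of 12 hippocampi, 3 per group, was sequenced by the authors after removal of rRNA, with strand kept. The authors mapped read pairs with kallisto to the Ensembl mouse transcriptome of GRCm38 (mm10), and the submitters' processing notes also name sleuth and CASAVA, with versions not given in the sources used here. The deposited signal is TPM per transcript scaled between libraries, with no read counts. Transcripts were matched to GENCODE vM21 (113580 of 115270), summed per gene and tested as log2(value + 0.5) with limma 3.58.1 in R 4.3.3 (lmFit, contrasts, eBayes with trend, two-sided), for the 18434 genes and 59852 transcripts at 0.1 or more in at least 6 libraries. This scale understates the change of low genes. The study's threshold, an unadjusted p under 0.01, decided calls, and Benjamini-Hochberg adjustment ran over all features of a fit. No result was adjusted over the 9 genes alone. Read pairs were estimated from the value of 1 read pair per library and the transcript lengths, and were used for floors, intervals and 1 alternative. With 3 mice per group, p values measure the spread between these libraries.

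Samples were grouped by their labels. Same-numbered libraries of different groups were not paired. The 9 genes and all lists were chosen with earlier results of these data known. Named were the 9 genes, their main and called isoforms, called pathway genes and the 10 genes most alike in pattern. Pathway and marker genes at p under 0.05 and the relations of Bst2, Oasl2, Ifit3 and Isg15 with marker sums were named after their values were seen. Alternatives set first were pseudocounts of 0.1 and 1, a filter at 1 TPM, no filter, a common total, median-of-ratios scaling, eBayes without trend, only the groups compared, transcripts, a replicate block and leaving out each library. Protein-coding transcripts only, RPM, a fit without the 3 libraries with the highest sums, and the alternatives for isoforms and patterns were added after seeing the data. The model was tested on simulated data. Python 3.11.15 with numpy 2.4.6, scipy 1.17.1, pandas 2.3.3 and matplotlib 3.10.9 made tables and plots.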

Additional observations from a re-analysis of the deposited data

Results flagged for a closer look

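For Ifit1 and Irf7 the effect of ethanol differed between stressed and undisturbed mice at an unadjusted p under 0.05 in a test of the difference itself, and neither passed adjustment over all genes. Ifit1 had an interaction of 0.86 ± 0.29 (SE) on the log2 scale (adjusted p = 0.99998 in limma). Its 3 ethanol + stress libraries lay above all 3 stress libraries, a pattern that 4.87% of all genes show. Without the 3 libraries with the highest sums the interaction of Ifit1 was 0.60. It was 0.92 in RPM and 0.83 at a common total, both called, and 0.69 to 1.04 when a library was left out. Irf7, summed over its transcripts, had an interaction of 0.95 ± 0.34 (SE, adjusted p = 0.99998 in limma), which was 0.64 in RPM and 0.02 with protein-coding transcripts only. The interaction of Irf7 was 1.14 without the 3 libraries with the highest sums. When a library was left out it was 0.71 to 1.23, the highest of these without ethanol library 2, where it is called. Over all 18434 genes, 496 had an unadjusted p under 0.05 for the interaction, or 2.69%.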

How the results depend on the processing

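Counts of called genes among the 9 moved by 1 or 2. With all libraries rescaled to a common total, 1 was called in ethanol (Irf7, -0.77), 1 in stress (Ifit1, -0.56 on the log2 scale) and 1 for the interaction (Ifit1, 0.83). For the interaction, 1 (Ifit1) was also called with eBayes without trend, with protein-coding transcripts only and in RPM (0.92). In the fit of protein-coding transcripts the values of Ifit1 are the same, so its interaction stays at 0.86 and only the SE differs. By transcripts, 2 members were called in ethanol. Leaving out each library gave 0 to 1 called in ethanol (Oasl2 without control 1, Irf7 without ethanol 2), 0 in stress and in ethanol + stress, and 0 to 2 for the interaction (Irf7 and Ifit1 without ethanol 2, Ifit1 without ethanol + stress 1). Called isoforms were 2, but 1 with a pseudocount of 0.1, 0 at a minimum of 1 TPM, 4 with no filter, and 1 to 3 when a library was left out. The Dhx58 isoform, at or under 3 read pairs in 11 of 12 libraries, was not called with a pseudocount of 0.1. Without the 3 libraries with the highest sums, 1 gene was called in ethanol and 1 for the interaction (Irf7 in both), and 4 isoforms. The median r of pairs was 0.0395 at a common total, 0.00983 without those 3 libraries and 0.10 to 0.24 when a library was left out.

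Signs of single genes, none of them called, turned as follows on the log2 scale. With protein-coding transcripts only, Ddx58 was at -0.0143 in ethanol, 0.171 in stress and -0.00939 for the interaction, Dhx58 at -0.0371 in ethanol, 0.0351 in stress, 0.169 in ethanol + stress and 0.171 for the interaction, and Irf7 at 0.114 in stress and 0.107 in ethanol + stress. In RPM, Oasl2 was at -0.0556 in ethanol, Ddx58 at 0.0762 in stress and -0.0422 for the interaction, Dhx58 at 0.0292 in stress, 0.124 in ethanol + stress and 0.00289 for the interaction, and Irf7 at 0.0213 in ethanol + stress. At a common total, Ifit3 was at -0.00186 in stress and Ifit1 at -0.0289 in ethanol + stress. Without the 3 libraries with the highest sums, Ddx58 was at -0.000625, Dhx58 at -0.138 and Isg15 at -0.0902 in ethanol, Ifit1 at -0.284, Ifit3 at -0.138 and Bst2 at -0.204 in ethanol + stress, and Dhx58 at 0.292, Oasl2 at -0.0987 and Bst2 at -0.407 for the interaction. Leaving out a library turned the sign for Bst2 (-0.0922 to 0.417), Ifit1 (-0.0783 to 0.27), Ifit3 (-0.0602 to 0.284) and Isg15 (-0.221 to 0.138) in ethanol + stress, Ddx58 (-0.000625 to 0.700), Dhx58 (-0.15 to 0.266) and Isg15 (-0.0902 to 0.357) in ethanol, Ddx58 (-0.46 to 0.00591), Ifih1 (-0.26 to 0.119), Ifit3 (-0.0443 to 0.0566) and Oasl2 (-0.188 to 0.113) in stress, and Bst2 (-0.255 to 0.256), Dhx58 (-0.281 to 0.135), Isg15 (-0.0731 to 0.374) and Oasl2 (-0.132 to 0.19) for the interaction. The cause was not tested.

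Every group holds the same replicate numbers, so a replicate block leaves each difference and its sign unchanged by design. It can change only the SE. Under it none of the 9 genes was called (0 in each comparison), and 0 of 43 results had another call. Same-numbered libraries had correlations of -0.21 to 0.20 in their deviations from group means, so the numbers were not taken as pairs. At a common total, the share of calls that were higher, over all genes, fell from 76.0% to 59.6% in ethanol and from 71.5% to 45.8% in ethanol + stress. Depth limits Isg15, Dhx58 and Irf7 most, with 5.95 to 36.8 read pairs per library.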
